A study of Mus musculus with 12 samples.

Results

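The liver secretes proteins that act on lipid and glucose metabolism elsewhere in the body, and 8 genes of such factors were followed here in liver cells at 3 stages: Ahsg, Fetub, Fgf21, Angptl4, Angptl6, Angptl8, Lect2 and Inhbe. They were taken as a list of named hepatokines and angiopoietin-like factors, matched by symbol to the mouse Ensembl identifiers, and all 8 were found among the 53715 genes of the count table. All 8 had over 10 counts in at least 1 library and were tested, among 17779 tested genes. RNA was sequenced from 3 groups of C57BL/6JOlaHsd mouse cells with 4 biological replicates each. Hepatoblasts, the bipotential progenitors of hepatocytes and bile duct cells, were sorted with magnetic beads for the surface marker Dlk1 from E14.5 embryonic livers, pooled over several embryos per isolation, and lysed without culture. Diff. hepatocytes came from hepatoblasts of the same kind that were grown for 4 days on fibronectin, in a differentiation medium that held dilute Matrigel, serum, insulin, transferrin, selenium and dexamethasone. Mature hepatocytes were obtained by collagenase perfusion of livers of adult male mice, 8 to 12 weeks of age, and were lysed directly. The cultured group thus differed from both others in the medium as well as in the stage of the cells, and these cannot be told apart here. The mature group differed from both others in the way its cells were isolated, and sex is given here for that group only. Isolation and sex cannot be told apart from stage either.

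The factors fall into 4 kinds. Ahsg encodes fetuin-A and Fetub encodes fetuin-B, abundant plasma glycoproteins with cystatin domains. Fetuin-A binds calcium phosphate and inhibits the insulin receptor, and fetuin-B inhibits the egg protease ovastacin. Angptl4, Angptl6 and Angptl8 encode angiopoietin-like proteins. ANGPTL4, a target of PPAR nuclear receptors in fasting, and ANGPTL8, which is induced by feeding, restrain lipoprotein lipase in different tissues and feeding states, whereas ANGPTL6 was described as a growth factor of skin and vessels that opposes obesity. Fgf21 encodes the fasting hormone FGF21, which signals through FGF receptors with the co-receptor beta-klotho, and Inhbe encodes the subunit of activin E. Lect2 encodes a plasma chemotactic factor that binds the receptors MET and TIE1 and was described as a target of beta-catenin in liver.

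Counts on genes per library numbered 21523329 to 25216977 for hepatoblasts, 19581551 to 22026087 for the Diff. group and 20043218 to 23791477 for the mature group. Levels are given as CPM, counts per 1e6 counts, on library sizes scaled with TMM, which corrects for the share of counts taken by the most abundant genes. The summed level of 7 hepatocyte markers (Alb, Ttr, Apoa1 and others) was 37030 to 62490, 53820 to 62640 and 110800 to 157900 CPM in the hepatoblast, Diff. and mature libraries. The sum of 5 hepatoblast markers, Afp and Dlk1 among them, was 41770 to 69980, 37800 to 44110 and 65.8 to 109 CPM in the same order. Other cells were represented at lower levels. The 7 erythroid markers summed to 1708 CPM in hepatoblast replicate 1, against 206 to 347 CPM in the other 3 hepatoblast libraries, 4.44 to 11.2 CPM with Diff. hepatocytes and 135 to 183 CPM with mature ones, where Alas2 gave 151 CPM on average. The 7 endothelial markers summed to 32.5 to 127, 4.79 to 10.02 and 100 to 192 CPM, the 7 macrophage markers to 47.6 to 212, 22.0 to 144 and 92.8 to 179 CPM, the 7 mesenchymal markers to 490 to 933, 930 to 2305 and 45.3 to 65.2 CPM, and the 6 bile duct markers to 12.9 to 15.1, 69.95 to 213 and 15.5 to 40.8 CPM. No marker was at 0 in every library of a group, and the part of these cells in the results was not tested. The study reported that Dlk1-sorted cells of E14.5 livers, the age used here, included some positive for the bile duct marker Sox9. In bulk RNA, fewer cells that express a gene and less of its RNA per cell cannot be told apart.

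Most of the factors were higher in both hepatocyte groups than in hepatoblasts. Between Diff. and mature hepatocytes, 1 of the 8 was called in each direction, which is near the share of all genes. A gene was called where its edgeR quasi-likelihood test gave a Benjamini-Hochberg adjusted p under 0.01 and the log2 fold change exceeded 1 in size. In Diff. hepatocytes against hepatoblasts, 5 of the 8 factors were higher (Ahsg, Fetub, Fgf21, Angptl4 and Inhbe), where 14.9% of all tested genes were called higher, and 1 of the 8, Lect2, was lower, where 14% of all genes were called lower. The libraries of these groups did not overlap for 6 of the 8 factors and for 57.5% of all genes. In mature hepatocytes against hepatoblasts, 6 of the 8 factors were higher (those 5 and Angptl8) against 20.1% of all genes, and none was lower against 24.7% of all genes. Here the libraries did not overlap for 5 of the 8, against 66% of all genes. Between Diff. and mature hepatocytes, only Ahsg was called higher in culture and only Lect2 lower, where 20.2% and 15.6% of all genes were called. The libraries did not overlap here for 3 of the 8 factors (Ahsg, Fetub and Lect2), against 61.6% of all genes. The median log2 fold change of the 8 factors was 2.93, 1.81 and 0.08 in the 3 comparisons, and that of all tested genes was -0.01, -0.15 and 0.09. The comparisons share libraries pairwise, so their values stand side by side and are not independent. The same shares of all genes apply to the counts of called genes in the lists below.

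**Figure D1:**
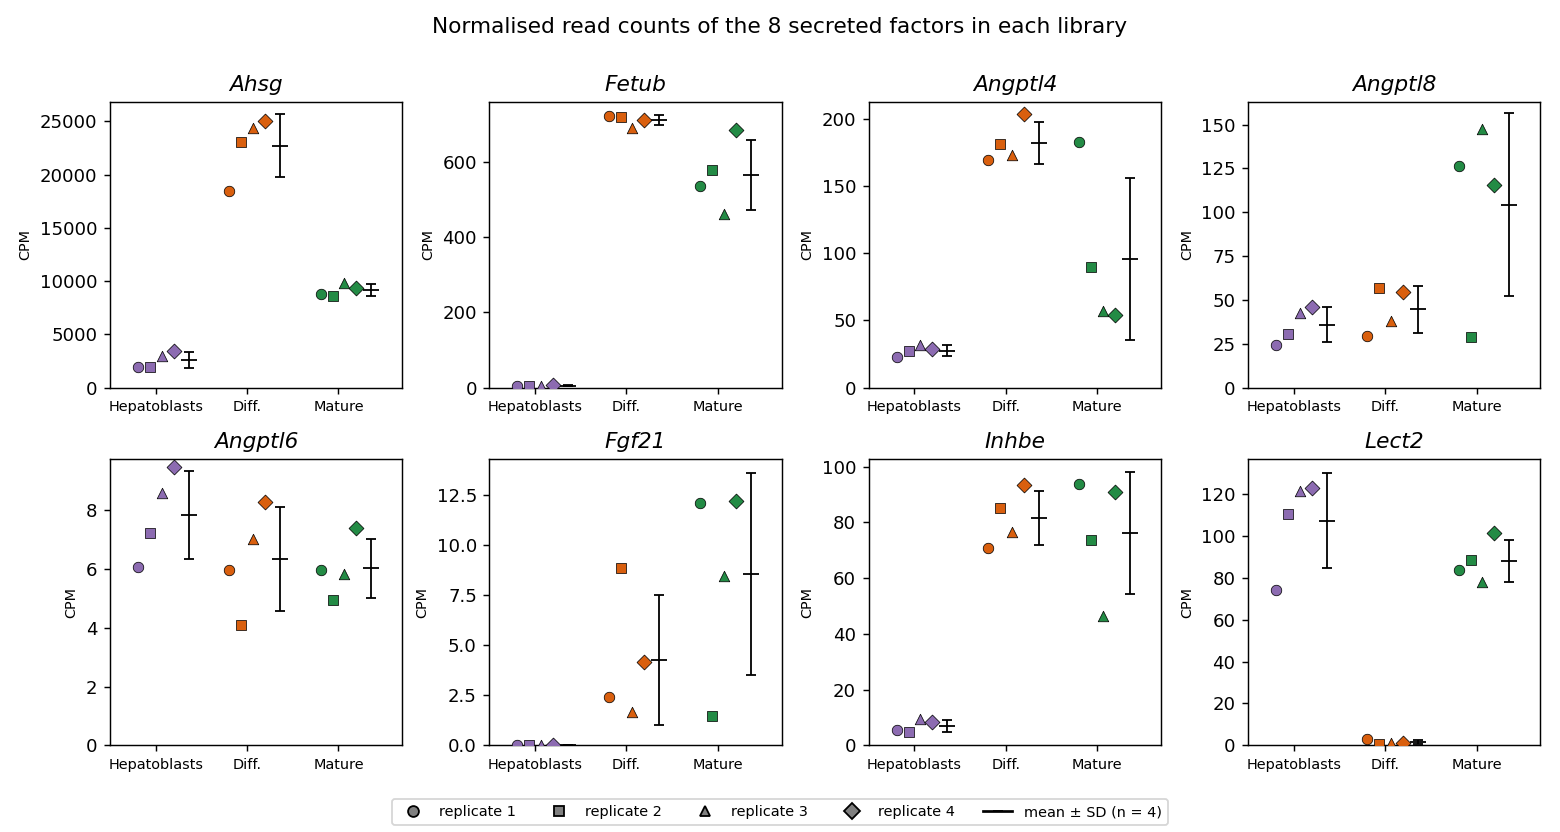
Each panel plots 1 gene, with CPM on a linear vertical axis from 0 and the 3 groups on the horizontal axis (Diff., Diff. hepatocytes. Mature, mature hepatocytes). Symbols are the 4 replicates of a group, and the horizontal mark with its bar is the mean ± SD. Lect2 lay at 0.688 to 2.94 CPM in Diff. hepatocytes and above 74 CPM in each of the other 8 libraries, and Fgf21 was at 0 in the 4 hepatoblast libraries.

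**Figure D2:**
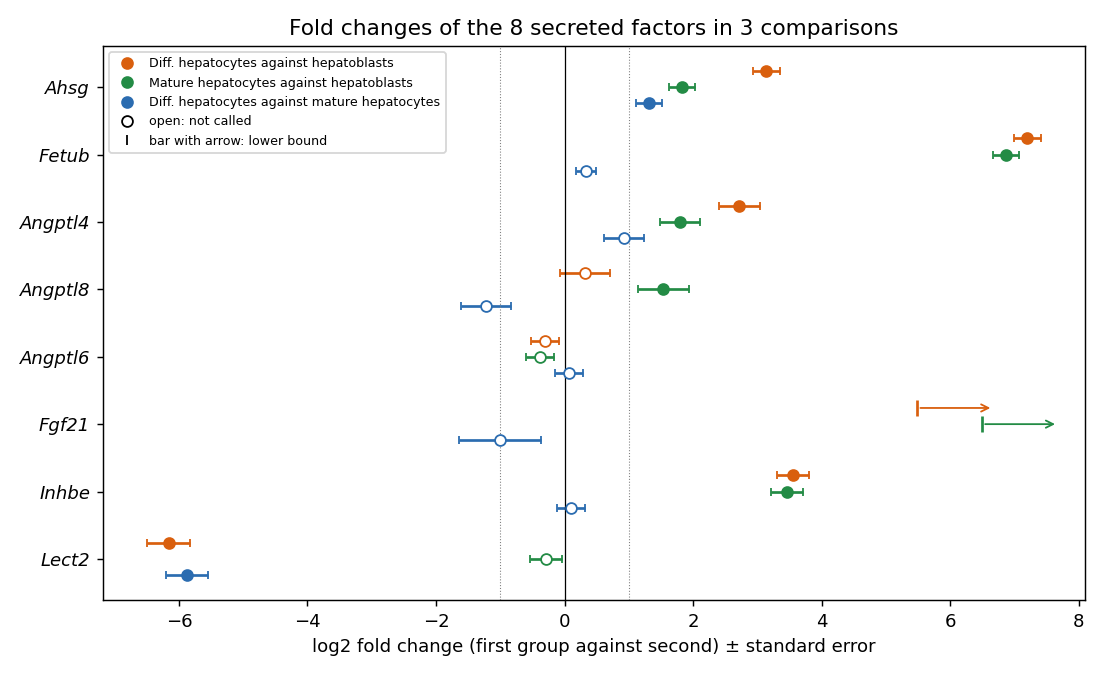
The horizontal axis is the log2 fold change of the first-named group against the second, with the standard error of the edgeR fit as bars. Filled points were called, open points were not, dotted lines mark a log2 fold change of 1 in either direction, and the bars with arrows for Fgf21 mark lower bounds of 44.6-fold and 89.6-fold. Lect2 stands alone on the left, at -6.16 and -5.87.

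Ahsg was the most abundant of the factors in every library. It lies at chr16:22891277-22899449 on the plus strand (GRCm38, ENSMUSG00000022868). An antisense gene, Gm30505, shares 62 of its 2197 exon bases. Its level was 1947, 1918, 3002 and 3462 CPM in hepatoblast replicates 1 to 4, then 18490, 23030, 24340 and 25020 CPM in the Diff. libraries, and 8821, 8640, 9789 and 9382 CPM in the mature ones. The groups did not overlap, and the order was Diff. hepatocytes (22720 ± 2935 CPM, SD, n = 4), mature hepatocytes (9158 ± 526 CPM) and hepatoblasts (2582 ± 774 CPM). Every step of this order was called. Ahsg rose by 3.14 ± 0.21 on the log2 scale (± SE) from hepatoblasts to Diff. hepatocytes (edgeR adjusted p = 5.06e-08), was 1.83 ± 0.20 higher in mature hepatocytes than in hepatoblasts (edgeR adjusted p = 2.27e-06) and was 1.31 ± 0.20 higher in Diff. than in mature hepatocytes (edgeR adjusted p = 6.16e-05). The last call was lost when the test itself was made against that threshold (edgeR glmTreat adjusted p = 0.0657). With plain library totals in place of TMM factors, the mature to hepatoblast difference was 0.99 and just missed the fold change threshold, while the median of all genes moved to -1 in that comparison.

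Fetub had the largest fold change of the factors detected in all groups. It lies downstream of Ahsg, at chr16:22918334-22939778 on the same strand (ENSMUSG00000022871). Hepatoblasts had 3.13, 4.95, 5.37 and 5.96 CPM, Diff. hepatocytes 722.2, 719.5, 691.8 and 712.8 CPM, and mature hepatocytes 536.9, 579.2, 462.3 and 686.6 CPM. The hepatoblast libraries were thus far below all 8 others, and each Diff. library was slightly above each mature library. Fetub rose by 7.20 ± 0.21 on the log2 scale, 146.5-fold, in Diff. hepatocytes (edgeR adjusted p = 4.19e-11), and was 6.87 ± 0.21 higher in mature hepatocytes than in hepatoblasts (edgeR adjusted p = 1.06e-11). Between Diff. and mature hepatocytes the difference was 0.33 ± 0.16 and was not called (edgeR adjusted p = 0.0843), although the libraries did not overlap (exact two-sided permutation test on log2 CPM, p = 0.0286, the smallest that 4 against 4 libraries allow). Among the 4 Diff. libraries Fetub was steady, with an SD of 0.028 on the log2 CPM scale where the median gene with at least 10 CPM had 0.109.

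Per kb of exon, Ahsg exceeded Fetub in every library, but by very different ratios. The ratio of their CPM per kb was 346 to 556, 22.9 to 31.4 and 12.2 to 18.9 in the hepatoblast, Diff. and mature libraries, and these ranges did not overlap. Of 4 further genes of the cystatin family (Hrg, Kng1, Kng2 and Cst3), 4 were called higher in Diff. hepatocytes and 4 in mature hepatocytes against hepatoblasts. Hrg, which encodes histidine-rich glycoprotein, was at 1.999 ± 0.377, 115 ± 64.7 and 911.5 ± 114 CPM in the hepatoblast, Diff. and mature groups. Unlike Fetub, it was called lower in Diff. than in mature hepatocytes, by 2.98 ± 0.31 on the log2 scale (edgeR adjusted p = 1.9e-06). Kng2, a kininogen gene, followed the order of Ahsg, with 29.2 ± 8.92, 454 ± 32.6 and 222 ± 34.9 CPM (log2 fold changes of 3.96 ± 0.20 and 2.92 ± 0.19 against hepatoblasts, edgeR adjusted p = 4.22e-09 and 1.23e-08).

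Angptl4 was higher in both hepatocyte groups, with a wide spread between mature libraries. The gene is at chr17:33773750-33781830 on the minus strand (ENSMUSG00000002289). Hepatoblasts had 22.7, 27.0, 31.8 and 28.9 CPM, Diff. hepatocytes 169.3, 181.2, 173.5 and 203.9 CPM, and mature hepatocytes 183.2, 89.5, 56.75 and 54.2 CPM. Mature replicate 1 lay within the range of the Diff. libraries and the other 3 mature libraries below it. Angptl4 rose by 2.72 ± 0.32 on the log2 scale in Diff. hepatocytes (edgeR adjusted p = 9.16e-06) and was higher by 1.80 ± 0.31 in mature hepatocytes (edgeR adjusted p = 0.000173), each against hepatoblasts. The second of these differences was 0.94 and was not called with library totals (edgeR adjusted p = 0.0101). Diff. hepatocytes exceeded mature ones by 0.93 ± 0.31, which was not called (edgeR adjusted p = 0.0169). Without mature replicate 1 that difference was 1.44 and was called (edgeR adjusted p = 1.59e-05), as it was with library totals (1.46) and with totals lacking the 50 most abundant genes (1.48).

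Angptl8 showed the opposite order of means between the hepatocyte groups, with a wide spread between mature libraries. The gene lies at chr9:21835510-21837347 on the plus strand (ENSMUSG00000047822), inside the span of Dock6 on the other strand but without shared exon bases. Its levels were 24.4, 30.7, 42.7 and 46.1 CPM in hepatoblasts, 29.25, 57.1, 38.1 and 54.5 CPM in the cultured cells, and 126.1, 28.8, 147.2 and 115.5 CPM in mature hepatocytes. Mature replicate 2 was thus within the hepatoblast range, and the other 3 mature libraries were above all 8 libraries of the other groups. Diff. hepatocytes and hepatoblasts did not differ beyond their spread (log2 fold change 0.32 ± 0.39, edgeR adjusted p = 0.506). Mature hepatocytes were higher than hepatoblasts by 1.54 ± 0.40 (edgeR adjusted p = 0.0033), but the groups overlapped and the exact permutation test gave p = 0.114. This call depended on the fit. It was lost in a test against the threshold (edgeR glmTreat adjusted p = 0.075), with library totals (0.69, edgeR adjusted p = 0.0983), with totals without the 50 most abundant genes (0.88, edgeR adjusted p = 0.0509) and without hepatoblast replicate 2 (1.46), mature replicate 1 (1.43) or mature replicate 3 (1.32). Angptl8 was lower in Diff. than in mature hepatocytes by 1.22 ± 0.39, which was not called (edgeR adjusted p = 0.0147), but was called by DESeq2 (adjusted p = 0.00421), without the filter on low counts (edgeR adjusted p = 0.00466) and without mature replicate 2 (-1.54, edgeR adjusted p = 0.000164).

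The ratio of these lipase inhibitors was lowest in culture. The ratio of Angptl8 to Angptl4 in CPM per kb was 4.39 to 6.54, 0.707 to 1.29 and 1.32 to 10.6 in the hepatoblast, Diff. and mature libraries, with medians of 5.07, 0.997 and 5.77. The 4 Diff. libraries were below every library of the other groups, though the lowest mature library, at 1.32, was close to them.

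No difference in Angptl6 was called between any of the groups. The gene is at chr9:20873808-20879727 on the minus strand (ENSMUSG00000038742). Its levels were 6.06, 7.22, 8.58 and 9.47 CPM in hepatoblasts, 5.96, 4.09, 7.01 and 8.28 CPM in the cultured cells and 5.96, 4.94, 5.83 and 7.38 CPM in mature hepatocytes, and all 3 ranges overlapped. The log2 fold changes were -0.31 ± 0.21, -0.38 ± 0.22 and 0.07 ± 0.22 (edgeR adjusted p = 0.234, 0.135 and 0.797). With library totals the mature level was 1.22 lower than in hepatoblasts on the log2 scale and was called, and with totals without the most abundant genes 1.05 lower, beside shifts of the median of all genes to -1 and -0.82. Of the 75-base stretches of its transcript, 12.7% also occur in A230050P20Rik, which shares 265 of 1582 exon bases on the other strand, so its low counts are uncertain to that extent. The study described its libraries as strand-specific, while the labels name a kit without saying whether it keeps strand, and the strand setting of the counting is not given in the sources used here.

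The lipases that these proteins restrain, and the convertases that process lipases and angiopoietin-like proteins, were measured in the same libraries. Of 8 genes of this axis, 4 were called higher and 2 lower in Diff. hepatocytes, and 5 higher and 1 lower in mature hepatocytes, each against hepatoblasts. Of all tested genes, 14.9% were called higher and 14% lower in the first comparison, and 20.1% and 24.7% in the second. Lpl, which encodes lipoprotein lipase itself, was at 389 ± 71.7 and 937 ± 89.96 CPM in the hepatoblast and Diff. groups, but at 18.7 ± 11.6 CPM in mature hepatocytes, which was 5.64 ± 0.39 below the cultured cells on the log2 scale (edgeR adjusted p = 4.42e-08). Lipg, the gene of endothelial lipase, had the opposite pattern, with 5.27 ± 1.79, 1.03 ± 0.268 and 61.9 ± 29.7 CPM and a difference of -5.91 ± 0.41 between Diff. and mature hepatocytes (edgeR adjusted p = 4.33e-08). The endothelial markers differed in the same direction as Lipg between these groups, with 7 of 7 called lower in Diff. hepatocytes, and the mesenchymal markers mostly in the direction of Lpl, with 5 of 7 called higher. Within groups the libraries were mixed. Diff. replicate 1 had the highest mesenchymal sum (2305 CPM) and the lowest Lpl (806 CPM), whereas mature replicate 3 had the highest of both (65.2 and 33.8 CPM). Mature replicate 3 also had the highest endothelial sum (192 CPM) and the lowest Lipg (32.8 CPM). The part of endothelial and mesenchymal cells in the values of these lipases was not tested. Pcsk6, a convertase that cleaves angiopoietin-like proteins, rose from 18.8 ± 3.92 CPM (hepatoblasts) to 106 ± 11.2 CPM in Diff. and 187 ± 31.4 CPM in mature hepatocytes (2.49 ± 0.16 and 3.32 ± 0.17 on the log2 scale, edgeR adjusted p = 4.15e-08 and 1.23e-09).

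Fgf21 was not detected in hepatoblasts. The gene is at chr7:45613886-45615490 on the minus strand (ENSMUSG00000030827). None of the 4 hepatoblast libraries had a count of it, where the 3 counts that a count of 0 allows correspond to 0.0957 CPM on average over these libraries, for counting error only. Diff. hepatocytes had 56, 206, 37 and 84 counts (2.42, 8.86, 1.64 and 4.14 CPM) and mature hepatocytes 177, 23, 145 and 197 counts (12.1, 1.475, 8.46 and 12.2 CPM). Every hepatocyte library was above every hepatoblast library, whereas the hepatocyte groups overlapped. Against the level of 3 counts per library, Fgf21 was at least 44.6-fold higher in Diff. hepatocytes and at least 89.6-fold higher in mature hepatocytes (edgeR adjusted p = 0.000145 and 3.35e-05). Without Diff. replicate 2, the highest of its group, the first bound was 28.6-fold. Diff. and mature hepatocytes, at 4.27 ± 3.24 and 8.57 ± 5.045 CPM, did not differ beyond their spread (log2 fold change -1.004 ± 0.63, edgeR adjusted p = 0.189, exact permutation p = 0.371). Without Diff. replicate 2 this difference was -1.66, still not called (edgeR adjusted p = 0.0456).

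Inhbe rose to overlapping levels in both hepatocyte groups. It lies at chr10:127348857-127354411 on the minus strand (ENSMUSG00000047492). Hepatoblasts had 5.48, 4.83, 9.255 and 8.21 CPM, Diff. hepatocytes 70.95, 85.0, 76.6 and 93.3 CPM, and mature hepatocytes 93.9, 73.5, 46.5 and 91.0 CPM. The hepatoblast libraries were all below the lowest hepatocyte library, and the 2 hepatocyte groups overlapped. The increase was 3.55 ± 0.25 on the log2 scale (11.7-fold) in Diff. hepatocytes and 3.46 ± 0.25 in mature hepatocytes (edgeR adjusted p = 7.31e-08 and 3.4e-08). The difference between the hepatocyte groups was 0.10 ± 0.22 (edgeR adjusted p = 0.72). The adjacent family gene Inhbc, which encodes the subunit of activin C, did not share this pattern. It was at 6.89 ± 1.42, 5.34 ± 0.883 and 86.7 ± 10.1 CPM in the hepatoblast, Diff. and mature groups, with 4.02 CPM in Diff. replicate 1 and 5.73 to 5.85 CPM in the other Diff. libraries, and Diff. hepatocytes were 4.02 ± 0.17 below mature ones on the log2 scale (edgeR adjusted p = 4.01e-10). Inhba, the subunit gene of activin A, resembled Inhbe in direction, with 5.72 ± 1.64, 21.25 ± 2.85 and 31.3 ± 14.3 CPM (1.90 ± 0.30 and 2.45 ± 0.30 above hepatoblasts, edgeR adjusted p = 0.000104 and 6.44e-06). Of the 10 tested genes of activin subunits, receptors and binding proteins, 3 were called higher and 3 lower in Diff. hepatocytes, and 3 higher and 4 lower in mature hepatocytes, against hepatoblasts. The shares of all tested genes were 14.9% and 14% in the first comparison and 20.1% and 24.7% in the second.

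On the receiving side of FGF21, none of 6 genes (Klb, the FGF receptor genes Fgfr1 to Fgfr4, and the FGF21-cleaving protease gene Fap) was called in mature hepatocytes against hepatoblasts, and 2 were lower in Diff. hepatocytes. Klb, the gene of beta-klotho, was at 105 ± 24.8, 61.9 ± 2.89 and 67.05 ± 21.5 CPM in the hepatoblast, Diff. and mature groups. Its difference of -0.77 ± 0.22 between Diff. hepatocytes and hepatoblasts was within the fold change threshold (edgeR adjusted p = 0.0085) and exceeded it with library totals (-1.07). Fgfr4, the main FGF receptor gene of hepatocytes, was at 54.0 ± 11.7 and 61.6 ± 3.88 CPM in hepatoblasts and mature hepatocytes and at 6.62 ± 0.981 CPM in Diff. hepatocytes, which was 3.03 ± 0.16 and 3.22 ± 0.17 lower on the log2 scale (edgeR adjusted p = 7.91e-09 and 2.65e-09). Fgfr1 and Fgfr2 were not called in Diff. hepatocytes against hepatoblasts (-0.05 ± 0.28 and -0.20 ± 0.20, edgeR adjusted p = 0.899 and 0.408). Fgfr1 was at 9.76 ± 2.04, 9.44 ± 2.71 and 10.1 ± 4.08 CPM in the hepatoblast, Diff. and mature groups. The other gene called lower in Diff. hepatocytes against hepatoblasts was Fgfr3 (-1.71 ± 0.22, edgeR adjusted p = 2.01e-05). Its levels were 29.8 ± 7.92, 9.11 ± 1.34 and 54.9 ± 13.35 CPM in the same order. Which of these receptors would carry FGF21 signals in these cells was not tested.

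Fgf21, Inhbe and Angptl8 share a sequence match in their promoters. Fgf21 and Inhbe rose in both hepatocyte groups, as Ahsg, Fetub and Angptl4 did, whereas Angptl8 was not called in Diff. hepatocytes against hepatoblasts. RefSeq promoter windows (GRCm38.p6) were available here for 7 of the 8 factors, and the 250 bases before each annotated start were searched on both strands for 9 motifs. The element bound by ATF4 and its partners, searched as TGATGNAAT and as TTGCATCA, which overlap because TTGCATCA reads TGATGCAA on the other strand, matched in 3 of the 7 factors and in 442 of 27025 genes (1.64%). The 30 bases around each match are shown because they are what these promoters have in common, 5′ to 3′ on the strand of the gene, with the match in capitals.
Fgf21, chr7:45615611-45615640, minus strand: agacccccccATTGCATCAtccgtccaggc
Angptl8, chr9:21835370-21835399, plus strand: gccatcagtcTGATGCAATggctgagcctc
Inhbe, chr10:127352011-127352040, minus strand: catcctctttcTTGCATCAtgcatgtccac
The match began 140 bases upstream of the start in Fgf21, 130 bases in Angptl8 and 181 bases in Inhbe, where the GENCODE transcript begins further upstream and the match lies within its first exon. A match describes these letters and is not a measured binding site. The factors and motifs were chosen with earlier results of these data known, so the shares are a description and not a test.

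Fgf21 and Fetub also shared a TATA box (TATAAA), which 14.3% of genes hold in this window.
Fgf21, chr7:45615501-45615530, minus strand: ggcctgtctgggTATAAAttctggtatttc
Fetub, chr16:22918339-22918368, plus strand: ctgtttgcaagaTATAAAagggcagtcaga
It began 28 and 31 bases upstream of the RefSeq start. The RefSeq starts of Ahsg and Fetub, like that of Inhbe, lie inside the GENCODE gene span. Fetub has 2 such starts, and its TATAAA and CCAAT matches lie before the first of them and its AGAACA and TGTTTAC matches before the second. Among the other motifs, CCAAT matched in Fetub and Inhbe (37.5% of genes), AGAACA, a core of glucocorticoid receptor elements, in Ahsg and Fetub (18.2%), the E-box CACGTG in Fgf21 (6.86%) and the HNF3 motif TGTTTAC in Fetub (3.54%). The HNF1 palindrome, the HNF4 direct repeat and the PPAR direct repeat matched in none of the 7 and in 0.0111%, 0.0407% and 0.4% of genes.

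The ATF4 and integrated stress response genes were followed as a list. Of 10 tested, 5 were called higher and 2 lower in Diff. hepatocytes, and 1 higher and 4 lower in mature hepatocytes, each against hepatoblasts. Between Diff. and mature hepatocytes, 7 of the 10 were higher in culture and none lower, with a median log2 fold change of 3.46. The 3 factors with the promoter match were not called there, at -1.004 (Fgf21), 0.10 (Inhbe) and -1.22 (Angptl8). A part of ATF4 in their levels was not tested. Trib3, a pseudokinase gene with 11.9 CPM in hepatoblast replicate 1 and 2.32 to 3.95 CPM in the other hepatoblast libraries, was at 5.45 ± 4.37, 179 ± 33.98 and 10.4 ± 5.35 CPM in the hepatoblast, Diff. and mature groups (5.04 ± 0.50 and 4.11 ± 0.48 higher in culture on the log2 scale, edgeR adjusted p = 1.7e-06 and 6.02e-06). Without hepatoblast replicate 1 the first difference was 5.77. Nupr1, a stress-induced chromatin protein gene, was also highest in culture, at 44.95 ± 11.1 CPM against 1.59 ± 0.579 and 1.23 ± 0.629 CPM in hepatoblasts and mature hepatocytes. The 2 genes called lower in Diff. hepatocytes than in hepatoblasts were Atf3 and Phgdh. Atf3 was at 114 ± 29.45, 24.4 ± 3.998 and 46.5 ± 20.9 CPM in the hepatoblast, Diff. and mature groups. Phgdh was at 345 ± 62.3, 75.8 ± 5.13 and 0.805 ± 0.249 CPM in the same order. Asns and Psat1, which encode enzymes of asparagine and serine synthesis, were close in hepatoblasts and Diff. hepatocytes and low in mature hepatocytes, where they were at 5.63 ± 2.26 and 3.96 ± 0.849 CPM against 159 ± 8.20 and 541 ± 56.9 CPM in culture. The RNA of Atf4 itself was at 208 ± 9.57, 177 ± 5.455 and 135 ± 19.4 CPM and was not called between Diff. hepatocytes and hepatoblasts (-0.24 ± 0.10, edgeR adjusted p = 0.0477).

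Lect2 was the only factor called lower in culture than in either other group. The gene is at chr13:56542464-56548502 on the minus strand (ENSMUSG00000021539). Hepatoblasts had 74.25, 110.8, 121.7 and 123.3 CPM, mature hepatocytes 83.7, 88.8, 78.2 and 101.6 CPM, and Diff. hepatocytes 2.94, 0.688, 1.199 and 1.13 CPM, which were 68, 16, 27 and 23 counts. All 4 Diff. libraries were below all 8 others, and the hepatoblast and mature ranges overlapped. Lect2 was 6.16 ± 0.33 lower on the log2 scale in Diff. hepatocytes than in hepatoblasts (71.6-fold, edgeR adjusted p = 7.35e-09) and 5.87 ± 0.33 lower than in mature hepatocytes (58.6-fold, edgeR adjusted p = 5.8e-09). Mature hepatocytes and hepatoblasts did not differ beyond their spread (-0.29 ± 0.25, edgeR adjusted p = 0.305, exact permutation p = 0.2), although with library totals the mature level was 1.13 lower and was called, beside the median of -1 of all genes. Among its receptors, Met was at 97.3 ± 18.6, 110 ± 3.26 and 117 ± 20.6 CPM and was not called in Diff. hepatocytes against hepatoblasts (0.18 ± 0.15, edgeR adjusted p = 0.309). That difference turned to -0.13 with library totals. Of the 4 receptor genes tested for Lect2 and Ahsg (Met, Tie1, Insr and Tlr4), only Tie1, the gene of an endothelial receptor, was called lower in Diff. hepatocytes against each other group, and none was called between mature hepatocytes and hepatoblasts. Tie1 was at 5.53 ± 4.10, 0.340 ± 0.300 and 13.99 ± 3.56 CPM, and of 7 endothelial markers 5 were called lower in Diff. hepatocytes against hepatoblasts and 7 against mature hepatocytes. The part of endothelial cells in the Tie1 values was not tested.

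Genes described as beta-catenin targets in liver were followed beside Lect2. Of 10, none was called higher and 5 were called lower in Diff. hepatocytes against hepatoblasts, and 8 were called lower against mature hepatocytes, with median log2 fold changes of -0.99 and -3.70. In mature hepatocytes against hepatoblasts, 3 were higher and none lower (median 0.41). Axin2, a feedback inhibitor of the pathway, had the pattern of Lect2, with 7.16 ± 2.35, 0.323 ± 0.087 and 10.4 ± 3.44 CPM in the hepatoblast, Diff. and mature groups (-4.44 ± 0.35 and -4.98 ± 0.36 on the log2 scale for Diff. hepatocytes, edgeR adjusted p = 2.14e-07 and 5.52e-08). Rnf43, a membrane ubiquitin ligase that turns over Wnt receptors, had it too, at 52.0 ± 12.5, 5.61 ± 0.549 and 50.3 ± 21.1 CPM (-3.21 ± 0.28 and -3.17 ± 0.28, edgeR adjusted p = 5.01e-07 and 4.25e-07). Nkd1, another feedback inhibitor gene, did not have it, at 3.25 ± 0.80, 6.38 ± 1.41 and 3.31 ± 0.774 CPM, and its difference of 0.97 ± 0.23 between Diff. hepatocytes and hepatoblasts was within the fold change threshold (edgeR adjusted p = 0.00268). Lgr5, the gene of an R-spondin receptor, was at 17.5 ± 5.31 and 9.25 ± 3.55 CPM in hepatoblasts and mature hepatocytes and at 0.132 ± 0.076 CPM in Diff. hepatocytes, and it was called lower there in both comparisons (edgeR adjusted p = 4.9e-08 and 1.28e-07). The pericentral genes Cyp2e1 and Slc1a2 differed from Lect2 in hepatoblasts, where they were low. Cyp2e1, which encodes a cytochrome P450, was at 2.82 ± 0.266, 3.24 ± 0.790 and 6500 ± 2033 CPM in the hepatoblast, Diff. and mature groups, and the glutamate transporter gene Slc1a2 was at 0.691 ± 0.094, 0.759 ± 0.487 and 167.5 ± 64.0 CPM. Glul, the gene of glutamine synthetase, was at 473 ± 61.8, 267 ± 36.8 and 884 ± 237.9 CPM and was lower in Diff. than in mature hepatocytes by 1.73 ± 0.19 (edgeR adjusted p = 2.9e-06). A part of beta-catenin in the level of Lect2 was not tested.

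**Figure D3:**
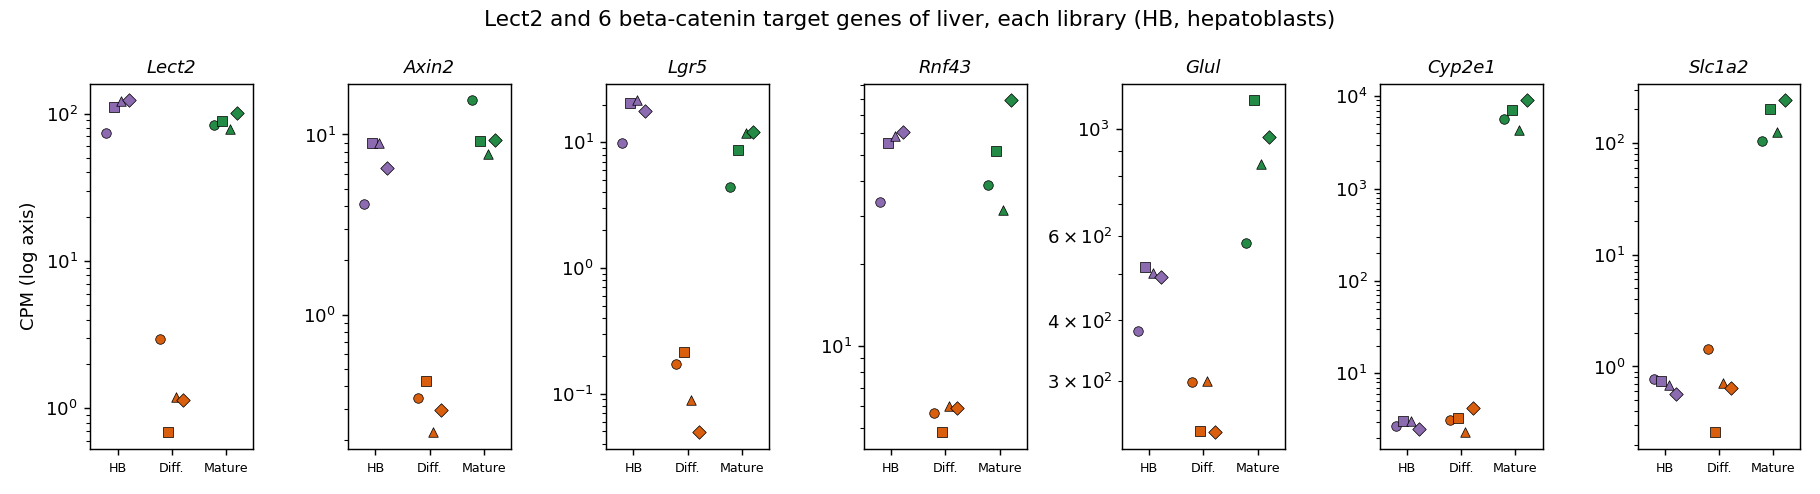
Each panel shows 1 gene with its CPM in every library on a logarithmic axis of its own, for hepatoblasts (HB), Diff. hepatocytes and mature hepatocytes, with circles, squares, triangles and diamonds for replicates 1 to 4. Lect2, Axin2, Lgr5 and Rnf43 were lowest in all 4 Diff. libraries, whereas Cyp2e1 and Slc1a2 were low in hepatoblasts as well. The panels show only a part of the 10 beta-catenin target genes followed. Oat, Tbx3, Znrf3 and Nkd1 are left out, and the mean of Nkd1 was highest in Diff. hepatocytes (6.38 CPM, against 3.25 and 3.31 CPM in hepatoblasts and mature hepatocytes).

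Ranked by CPM per kb among 21890 protein-coding genes, the factors spanned most of the range of expression. Ahsg ranked 19, 2 and 15 in the hepatoblast, Diff. and mature groups, with 1175, 10340 and 4168 CPM per kb. The 8 factors together held 0.359%, 2.49% and 0.735% of all counts in the hepatoblast, Diff. and mature groups, and Ahsg alone gave 92.95%, 95.6% and 90.6% of that. Fetub moved from rank 7776 in hepatoblasts to 84 in Diff. and 198 in mature hepatocytes. Lect2 fell from rank 221 to 8813 in Diff. hepatocytes and was at 597 in mature hepatocytes. Angptl8 kept a high standing throughout, at ranks 752, 655 and 468, and Angptl6 a middling one, at 5489, 6112 and 6458. Angptl4 stood at 3959, 659 and 1693, and Fgf21, at 0 in hepatoblasts, at 5734 and 3932 in the hepatocyte groups. The ranks of Inhbe, 9411, 2145 and 2789, rest on a GENCODE exon length of 5319 bases that includes a long first exon, and a shorter transcript would raise them.

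**Figure D4:**
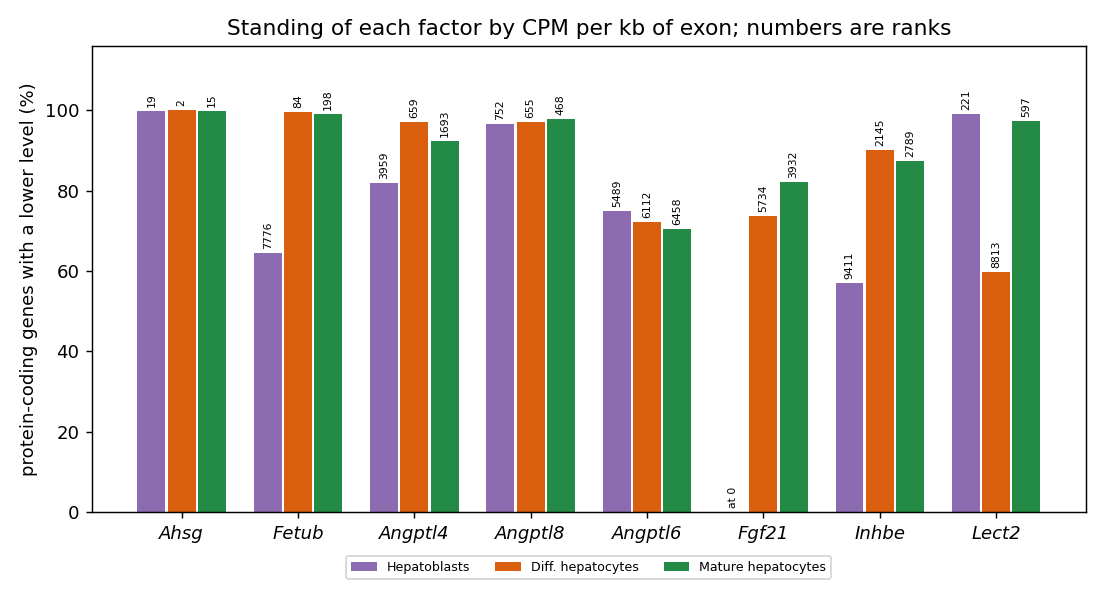
Bars give the share of 21890 protein-coding genes with a lower mean level in CPM per kb of exon, from 0 to 100%, for each factor and group, and the numbers above them are ranks (1, the highest). Ahsg stayed within the top 19 genes in all 3 groups, while Fetub rose from rank 7776 to 84 and Lect2 dropped from 221 to 8813 in Diff. hepatocytes.

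The spread between libraries of a group differed by factor. On the log2 CPM scale, the SD in mature hepatocytes was 1.42 for Fgf21, 1.09 for Angptl8, 0.814 for Angptl4 and 0.467 for Inhbe, but 0.237 for Fetub, 0.235 for Angptl6, 0.161 for Lect2 and 0.083 for Ahsg, where the median gene with at least 10 CPM had 0.161. The mature libraries were ordered differently by factor. Mature replicate 1 had the highest Angptl4 and Inhbe and the second-highest Angptl8 and Fgf21, whereas mature replicate 2 had the lowest Angptl8 and Fgf21 and the second-highest Angptl4. In mature replicate 1, 8 of 11 PPAR target genes were the highest of the 4 mature libraries and 5 of 10 lipogenic genes the lowest. In mature replicate 3, 7 of the 11 PPAR targets were the lowest and 6 of the 10 lipogenic genes the highest. In mature replicates 2 and 4, 0 and 3 PPAR targets were the highest and 3 and 1 the lowest. Of the lipogenic genes, 2 and 2 were the highest there and 4 and 1 the lowest. Another list was uneven as well, with 8 of 14 regulators highest in mature replicate 4 and 8 lowest in mature replicate 3. How often any gene was the highest or lowest in each of these libraries was not counted, so these counts are a description only. Mature replicate 4 had the highest Fgf21 (12.2 CPM) and the lowest Angptl4 (54.2 CPM). In Diff. hepatocytes, Fgf21 had an SD of 1.03 and Lect2 of 0.820, both at few counts.

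Other secreted liver factors showed each of these patterns. Of 14 further hepatokines, 7 were called higher and 2 lower in Diff. hepatocytes and 7 higher and 1 lower in mature hepatocytes, against hepatoblasts, and 2 were higher and 5 lower in Diff. than in mature hepatocytes. Selenop, the gene of the selenium transporter selenoprotein P, and Fgl1, which encodes hepassocin, rose in both hepatocyte groups, as Fetub and Inhbe did. Selenop was at 1050 ± 202.5, 3778 ± 131.5 and 5006 ± 299 CPM, and Fgl1 at 1.26 ± 0.142, 239.5 ± 50.8 and 341 ± 203 CPM (7.57 ± 0.45 and 8.08 ± 0.45 above hepatoblasts on the log2 scale, edgeR adjusted p = 1.59e-08 and 2.98e-09). Igfbp1, a fasting-induced IGF-binding protein gene, was highest in culture like Ahsg, at 250 ± 53.1, 4814 ± 659 and 497 ± 188 CPM (3.28 ± 0.26 above mature hepatocytes, edgeR adjusted p = 1.48e-07). Gdf15 and Dpp4 were lowest in culture like Lect2. Gdf15, which encodes a stress-induced cytokine, was at 98.4 ± 17.9, 13.3 ± 0.648 and 145 ± 78.7 CPM (-2.88 ± 0.33 and -3.44 ± 0.33 for Diff. hepatocytes against hepatoblasts and mature hepatocytes, edgeR adjusted p = 5.8e-06 and 9.92e-07), and Dpp4, the gene of a peptidase that cleaves incretins, at 20.9 ± 2.59, 2.97 ± 1.11 and 153 ± 6.84 CPM.

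Most transcription factor genes known to act on these factors were higher in mature hepatocytes. Of 14 regulators, 12 were called higher and none lower in mature hepatocytes against hepatoblasts, while 6 were higher and 1 lower in Diff. hepatocytes, and 9 were lower in Diff. than in mature hepatocytes. Ppara, the nuclear receptor gene that acts on Fgf21 and Angptl4 in fasting, was at 34.2 ± 7.93, 138 ± 19.01 and 241 ± 71.0 CPM (2.01 ± 0.22 and 2.82 ± 0.22 above hepatoblasts, edgeR adjusted p = 3.68e-06 and 8.18e-08). Of 11 PPAR target genes, 9 were higher and 1 lower in each hepatocyte group against hepatoblasts. Between Diff. and mature hepatocytes, 1 of the 11 was higher and 5 were lower (median log2 fold change -1.08), where Angptl4 was at 0.93 and not called. Cpt1a, the carnitine palmitoyltransferase gene of liver, rose to 469 ± 68.25 and 727 ± 153 CPM from 31.2 ± 2.20 CPM. The 1 target called higher in culture was Pdk4, a pyruvate dehydrogenase kinase gene, at 17.2 ± 3.86, 114 ± 10.5 and 12.8 ± 9.76 CPM, which was 3.16 ± 0.44 higher in Diff. than in mature hepatocytes (edgeR adjusted p = 2.73e-05).

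Mlxipl, which encodes the carbohydrate-response factor ChREBP, was highest in mature hepatocytes, like the mean of Angptl8, at 112 ± 26.55, 47.2 ± 8.86 and 424 ± 120 CPM (log2 fold change 1.92 ± 0.23 in mature hepatocytes against hepatoblasts and -3.17 ± 0.25 in Diff. against mature hepatocytes, edgeR adjusted p = 6.29e-06 and 1.28e-07). Unlike that of Angptl8, the mean of Mlxipl was lower in Diff. hepatocytes than in hepatoblasts. Among mature libraries Mlxipl was highest in replicate 2 (545.5 CPM), where Angptl8 was lowest (28.8 CPM). A link between the 2 genes was not tested. Of 10 lipogenic genes, 4 were higher in Diff. and 6 higher and 1 lower in mature hepatocytes against hepatoblasts, and 1 was higher and 4 were lower in Diff. than in mature hepatocytes. Thrsp, a lipogenic nuclear protein gene, was at 0.205 ± 0.078, 20.9 ± 3.21 and 525 ± 246 CPM.

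The differentiation medium held dexamethasone, a glucocorticoid, and 6 of 8 glucocorticoid response genes were higher and 1 lower in Diff. hepatocytes against hepatoblasts. In mature hepatocytes 5 of the 8 were higher as well, and between the hepatocyte groups 3 were higher and 3 lower in culture. Klf9, a glucocorticoid-induced zinc finger factor gene, was at 5.12 ± 1.68, 85.9 ± 7.02 and 197 ± 20.3 CPM. The 9 genes of the hypoxia response, which Angptl4 also belongs to by its known regulation, were mixed, with 3 higher and 1 lower in Diff. hepatocytes and 3 higher and 4 lower in mature hepatocytes against hepatoblasts, and 4 higher and 1 lower in Diff. than in mature hepatocytes. The shares of all tested genes were 14.9% and 14%, 20.1% and 24.7%, and 20.2% and 15.6% in the same order.

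**Figure D5:**
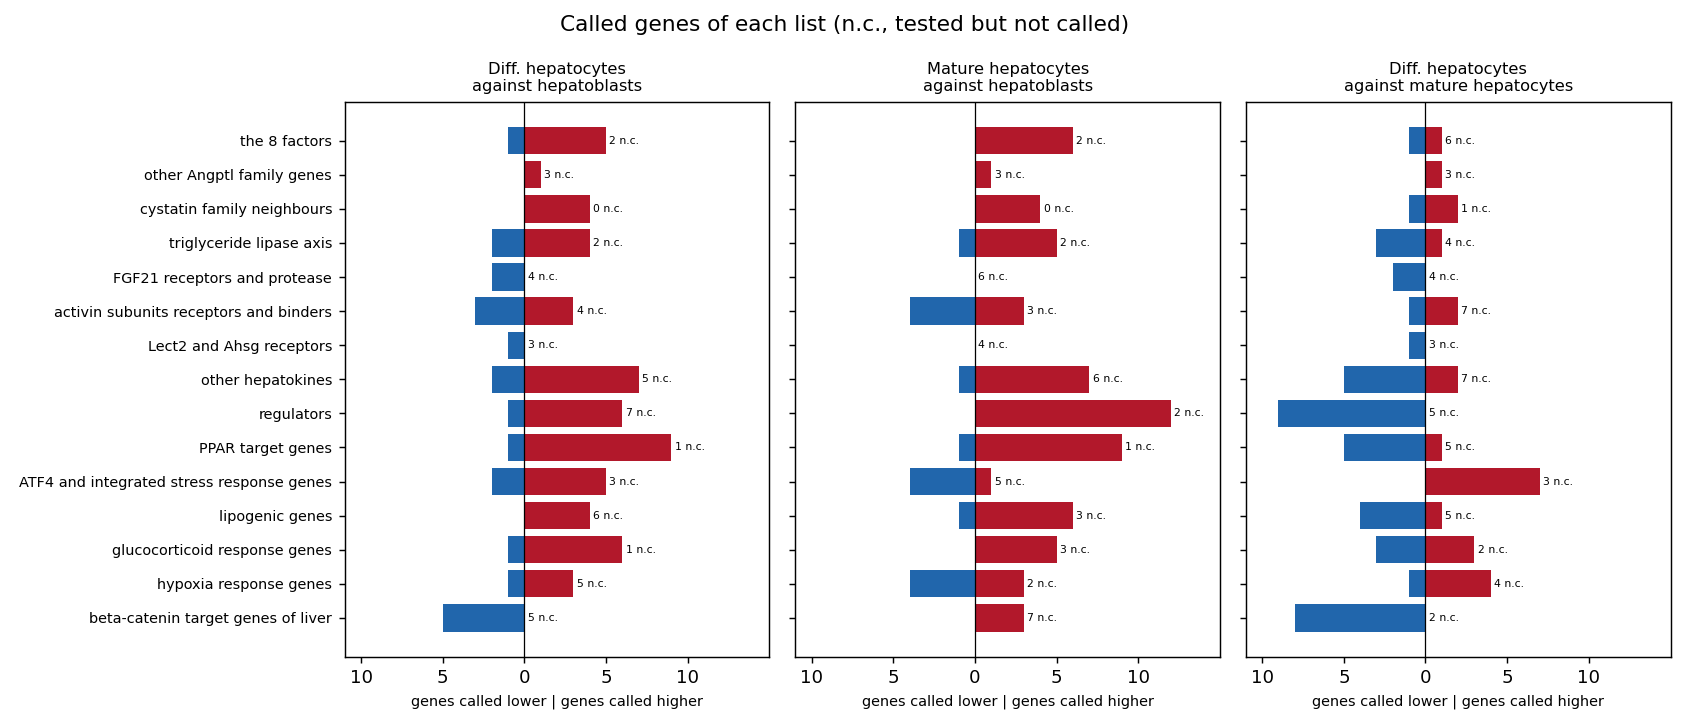
Bars to the right count the genes of each list called higher in the first-named group and bars to the left those called lower, with the number tested but not called (n.c.) beside them, in the 3 comparisons. The regulators had 12 higher in mature hepatocytes against hepatoblasts, the ATF4 list 7 higher and the beta-catenin targets 8 lower in Diff. against mature hepatocytes. Of all tested genes, 14.9%, 20.1% and 20.2% were called higher and 14%, 24.7% and 15.6% lower in the 3 comparisons.

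The genes whose pattern over the 12 libraries was most like each factor were named by the Pearson correlation of log2 CPM, among genes with a mean of at least 10 CPM. The libraries form 3 groups, so a high value mostly reflects the same order of the groups, and it is given as a description only. Fetub was closest to Cps1 (r = 0.997), the carbamoyl phosphate synthetase gene of the urea cycle, which was at 22.0, 5917 and 6063 CPM in hepatoblasts, Diff. and mature hepatocytes, and to Serpina3m (r = 0.996). Lect2 was closest to Selenow (r = 0.994, 85.8, 26.45 and 81.7 CPM) and Anapc2 (r = 0.989), which shared its dip in culture at a smaller size. Inhbe was closest to Amy1 (r = 0.994, 27.99, 249.6 and 246 CPM), an amylase gene, and Mpc1 (r = 0.989), a mitochondrial pyruvate carrier gene. Ahsg was closest to Vnn3 (r = 0.99) and Kyat1 (r = 0.989), Fgf21 to Zfp110 (r = 0.984) and Bcl6 (r = 0.983), Angptl4 to Rab30 (r = 0.985) and Map1lc3b (r = 0.969), and Angptl8 to the lysosomal lipase gene Lipa (r = 0.93), among others. Angptl6, which varied least between groups, had the weakest nearest genes, Ccdc127 (r = 0.836) and Stub1 (r = 0.83).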

How the data were processed

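Poly(A) RNA of 12 libraries was sequenced in 75-base single reads, and the authors used STAR (2.5.2b) for mapping to GRCm38 and for counting on Ensembl release 92 genes, with FastQC, Picard and DESeq2 named in the submitters' processing notes. The deposited table holds raw, not normalized counts for every gene. Each library was assigned to its group by its label. The 8 factors, the gene lists and the motifs were chosen with earlier results of these data known. The 17779 genes that exceeded 10 counts in some library were fitted in 1 model of 12 libraries with edgeR 4.0.16 (R 4.3.3, TMM, quasi-likelihood test), and p-values were adjusted over all of them after Benjamini and Hochberg. A prior count of 2 was added for log2 CPM. The exact two-sided permutation tests covered the 70 assignments of 8 libraries to groups of 4. SDs describe the spread between isolations, and floors of 3 counts describe counting error only. Exon lengths and positions are from GENCODE release M21, where 53620 of 53715 identifiers and 177 of 178 listed symbols were found, and Ddit3, which has more than 1 identifier, was left out. Genes named beside the factors come from the lists. The alternatives were DESeq2 1.42.0, a test against the fold change threshold, 3 other scalings, other filters, the libraries of a comparison alone, a replicate block, an adjusted p under 0.05, and leaving out each library in turn. The script was checked on simulated counts. Some of the genes compared are not reported here.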

Additional observations from a re-analysis of the deposited data

Results flagged for a closer look

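Within each group of 4 libraries, the highest and the lowest value of a gene were compared with the range of the group by Dixon's criterion. This was done for all the factors, but for only a part of the other genes named here. Tlr4, Alas2, Tie1, Nkd1, Fgfr1 and Insr were among the named genes that were not compared. Of the 126 groups of values that were compared, 2 had a library set apart, where chance alone gives 6.3. The CPM of Inhbc in Diff. hepatocytes replicate 1 was 4.02, against 5.73 to 5.85 in the other 3 libraries. The CPM of Trib3 in hepatoblast replicate 1 was 11.9, against 2.32 to 3.95 in the other 3, and this library also had the highest summed erythroid (1708 CPM), macrophage (212 CPM) and endothelial (126.5 CPM) markers of the group, against at most 347, 53.2 and 57.05 CPM in the others. The part of those cells in the Trib3 value was not tested.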

How the results depend on the processing

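Against hepatoblasts, 6 factors were called in each comparison, and 6 and 5 to 6 under the alternatives and with single libraries left out. With library totals, Ahsg, Angptl4 and Angptl8 were not called in mature hepatocytes against hepatoblasts, and Angptl6 and Lect2 were called lower. Hepatoblast replicate 1, rich in erythroid markers, left both counts at 6 when omitted. Between Diff. and mature hepatocytes 2 factors were called, 1 in a test against the threshold (edgeR glmTreat), 4 where an adjusted p under 0.05 alone made the call, and 2 to 3 with single libraries left out. Values that changed sign were not called. They were Met in Diff. hepatocytes against hepatoblasts with library totals (-0.13), and between Diff. and mature hepatocytes Angptl6 without Diff. replicate 4 (-0.084) or mature replicate 2 (-0.022), in a range of -0.084 to 0.226 with single libraries left out, and Inhbe without mature replicate 3 (-0.084), in a range of -0.084 to 0.208. Over all genes, glmTreat left 2966, 5750 and 4221 calls of 5145, 7971 and 6362, and an adjusted p under 0.05 alone gave 10615, 12870 and 11580. With library totals 2008 genes were higher and 7915 lower in mature hepatocytes against hepatoblasts (3580 and 4391 with TMM), 1985 and 3621 in Diff. hepatocytes against hepatoblasts (2648 and 2497), and 5499 and 1776 in Diff. against mature hepatocytes (3586 and 2776), with medians of all genes of -1, -0.34 and 0.62. Totals without the 50 most abundant genes gave 2282 and 7016 in mature hepatocytes against hepatoblasts, and 5677 and 1744 in Diff. against mature hepatocytes.

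No label says that replicate numbers mark a shared isolation. Same-numbered deviations correlated at -0.06 to 0.32 between hepatoblasts and Diff. hepatocytes, with 3 of 4 pairs over 0.1 and 2 and 3 of the 4 libraries correlating best with their own number, which is a hint of pairing from the data and not from the design, and at -0.08 to 0.09 in the other pairs of groups. With a replicate block, 6, 6 and 2 factors were called, the same calls as without it. The causes of these changes were not tested. Fgf21, at 0 counts in hepatoblasts, and Lect2 and Angptl6, at few counts in their lowest libraries, are limited by depth.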
